A study of Mus musculus with 2 samples.

Results

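The contractile genes of mammary myoepithelial cells were examined in basal cells of control mice (Ctrl basal) and of mice given clodronate liposomes repeatedly into the peritoneal cavity (CL basal). The set was chosen by name, as the 10 genes *Acta2*, *Actg2*, *Tpm2*, *Lmod1*, *Tagln*, *Cnn1*, *Myh11*, *Myl9*, *Mylk* and *Oxtr*, out of 49492 genes in the count table. All 10 were found under these names, and all 10 passed the filter of at least 20 counts summed over both libraries. Clodronate liposomes are drug-loaded vesicles used to deplete macrophages, the cells that engulf them. Both libraries were labelled day 7 and were made from total RNA of sorted primary mammary epithelial cells of wild-type mice, which the study's methods describe as adult females. The control was labelled as having no treatment, and the series' design text names saline. The study's sort took CD24+, CD29 high cells after removal of cells with the lineage markers CD45 (leukocytes), CD31 (endothelium) and TER119 (erythroid cells), and how many mice gave each library is not given in the sources used here. Each group was 1 library. The differences are therefore without a check by replicates, their intervals cover counting error only, and every comparison is one of 2 libraries and not of the conditions.

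Myoepithelial cells form the outer, basal layer of mammary ducts and alveoli and squeeze milk toward the nipple during lactation. They do so with the machinery of smooth muscle. Actin filaments carrying tropomyosin, calponin and transgelin slide against smooth muscle myosin, whose regulatory light chain is phosphorylated by myosin light chain kinase. Oxytocin, released at suckling, binds its receptor on these cells and raises calcium, which activates the kinase through calmodulin. Many of these genes are known targets of serum response factor (SRF), which binds a short AT-rich element called the CArG box and works with cofactors of the myocardin family.

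The total was 37846008 counts in Ctrl basal and 38962512 in CL basal. Basal keratins were abundant in both, with 210758 counts of *Krt14* in Ctrl basal and 232845 in CL basal, and 87869 and 98774 of *Krt17*. *Krt5* went the other way, with 47049 counts in Ctrl basal and 40295 in CL basal. Luminal keratins were also present, with 86539 counts of *Krt8* in Ctrl basal and 53150 in CL basal, and 49639 and 27492 of *Krt18*. All 18 genes of a luminal marker list were lower in CL basal, with a median log2 fold change of -0.92. A list of 15 basal identity genes, among them *Krt5*, *Krt14*, *Krt17* and *Trp63*, had a median of -0.04. By sign, 8 of these were lower in CL basal and 7 higher. In bulk RNA, fewer cells of a type and less RNA per cell cannot be told apart.

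The contractile genes were nearly level between the libraries. They held 569368 counts in Ctrl basal and 570614 in CL basal, or 1.504% and 1.465% of all counts. On the CPM scale (counts divided by the TMM-scaled library size and multiplied by 1e6), the sum was 14847 in Ctrl basal and 14840 in CL basal. The log2 ratio of the sums was -0.0006 (95% exact binomial interval -0.0059 to 0.0047). Each other scaling put this ratio outside the interval, at values from -0.057 to 0.0095. *Myh11* alone gave 50.1% of the summed counts in Ctrl basal and 50.8% in CL basal. The median log2 fold change of the 10 genes was -0.04, beside a median of -0.01 over all 17356 genes with at least 20 counts, and the values ran from -0.31 for *Lmod1* to 0.33 for *Mylk*.

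None of the 10 genes differed by 2-fold or by 1.5-fold. Among all genes tested, 4.79% were at least 2-fold lower in CL basal and 2.07% at least 2-fold higher, and 11.7% and 6.33% passed 1.5-fold. These shares come mostly from genes of low abundance. Among the 7097 genes with at least 1000 counts, a range that holds all 10 contractile genes, 0.535% were at least 2-fold lower and 0.155% at least 2-fold higher, and 2.21% and 1.04% passed 1.5-fold. A count of 0 of 10 is therefore near the background of well counted genes. By counting error alone, 6 of the contractile genes were lower in CL basal and 4 were higher, but the interval also lay below 0 for 25.4% and above 0 for 25.2% of all genes tested, so such a difference is common at this depth. The low counts of the table are even more often than odd (for counts of 20 or less, 67.9% for Ctrl basal and 68.7% for CL basal), a pattern that counting both mates of each pair would give, and intervals were also computed with counts halved. Among genes with at least 1000 counts the shares were 27.2% below and 41.4% above. With counts halved, 5 contractile genes lay below 0 (background 17.5% of all genes tested and 21.6% of those with at least 1000 counts) and 4 above (18.6% and 34.6%), since the interval of *Myl9* (-0.10 to 0.01) then held 0.

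**Figure D1:**
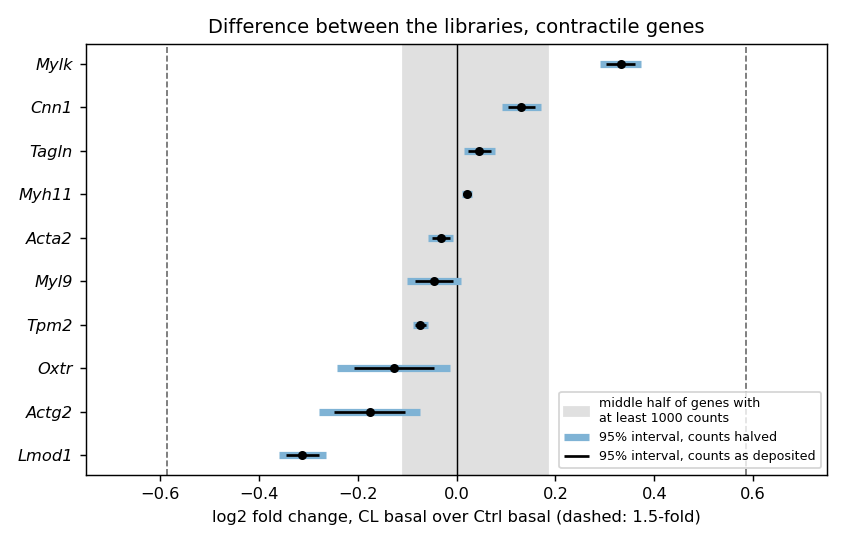
Log2 fold change of each contractile gene, CL basal over Ctrl basal (1 library each). Points are the values, thin bars the 95% exact binomial interval of the deposited counts, thick bars the same with counts halved, the grey band the range from the lower to the upper quartile of genes with at least 1000 counts, and dashed lines 1.5-fold. *Mylk*, *Lmod1*, *Actg2* and *Oxtr* lie outside the band, and no gene reaches 1.5-fold.

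The level of each gene was then compared per kilobase of exon (CPM divided by the exon length in the table, written RPKM). In Ctrl basal the order from high to low was *Tpm2*, *Myh11*, *Acta2*, *Tagln*, *Myl9*, *Cnn1*, *Lmod1*, *Actg2*, *Mylk* and *Oxtr*. The highest and the lowest level differed by a factor of 84.0 in Ctrl basal and 88.1 in CL basal. The order in CL basal was the same but for 2 exchanges of neighbours. *Tpm2* was 1.06 times *Myh11* in Ctrl basal and 0.990 times in CL basal, and *Actg2* was 1.31 times *Mylk* in Ctrl basal and 0.923 times in CL basal. These 2 pairs have no order that holds in both libraries. For the remaining neighbours, the closest were *Myl9* and *Cnn1*, with a ratio of 1.28 in Ctrl basal and 1.13 in CL basal. Whether neighbours differ beyond the spread between animals was not tested.

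**Figure D2:**
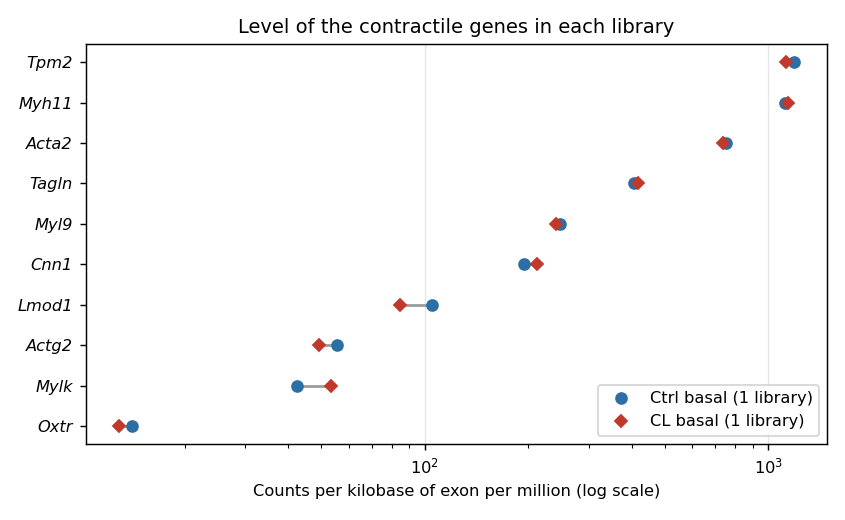
Level of each contractile gene in RPKM, on a log axis, with a circle for Ctrl basal and a diamond for CL basal (1 library each). The levels span from 12.9 (*Oxtr*, CL basal) to 1185 (*Tpm2*, Ctrl basal), and the 2 symbols of each gene lie close together.

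The actin filament came first. *Acta2* (chromosome 19, 34241090 to 34255336, minus strand, GRCm38, the build named in the labels), the alpha actin of smooth muscle and the usual stain for myoepithelial cells, had 51506 counts in Ctrl basal and 50513 in CL basal. Its level was 754 RPKM in Ctrl basal and 738 in CL basal, the rank of 64 among all genes in both. The log2 fold change was -0.03 (interval -0.05 to -0.01). *Actg2* (chromosome 6, 83512905 to 83536265, minus strand), the gamma actin of enteric smooth muscle, had 3322 counts in Ctrl basal and 2949 in CL basal, 55.6 and 49.3 RPKM. Its log2 fold change was -0.18 (-0.25 to -0.10). *Acta2* was nearly equal in both libraries, while *Actg2* was slightly lower in CL basal.

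The actins are close relatives in sequence, which matters where reads are assigned to genes. The last 90 coding bases before the stop codon are shown for both contractile actins and both cytoplasmic actins (GENCODE release M21, 5′ to 3′ on the coding strand, aligned without gaps from the last codon), with capitals at bases that differ from *Acta2*. They lie in the last coding exon, at chr19:34241670-34241759, chr6:83512988-83513077, chr5:142903801-142903890 and chr11:120346393-120346482 of GRCm38, each on the minus strand.
Acta2: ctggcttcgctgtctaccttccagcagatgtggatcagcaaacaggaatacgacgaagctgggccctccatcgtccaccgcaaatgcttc
Actg2: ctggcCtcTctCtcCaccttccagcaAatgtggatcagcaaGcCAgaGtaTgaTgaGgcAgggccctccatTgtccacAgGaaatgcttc
Actb: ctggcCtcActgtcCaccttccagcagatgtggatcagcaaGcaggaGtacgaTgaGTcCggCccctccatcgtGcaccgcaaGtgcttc
Actg1: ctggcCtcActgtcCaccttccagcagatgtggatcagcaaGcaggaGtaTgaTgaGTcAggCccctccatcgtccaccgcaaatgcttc
In this stretch *Actg2* differed from *Acta2* at 16 bases, *Actb* at 12 and *Actg1* at 11. Over the shared coding length the identity to *Acta2* was 83.8% for *Actg2*, 83.0% for *Actb* and 81.7% for *Actg1*. Of all windows of 100 bases in the *Acta2* transcript, 0 of 1936 occurred in a transcript of another gene, and the same held for 0 of 1234 windows of *Actg2*. For *Actg1*, 946 of 1853 windows (51.05%) also occurred in transcripts of other genes, mostly the pseudogene model *Gm12715*, so its counts are uncertain wherever they are used. For *Actb* the share was 1.10%.

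The contractile actins held a larger share of the actin level in CL basal than in Ctrl basal. The cytoplasmic actins *Actb* and *Actg1*, which all cells use, were lower in CL basal. *Actg1* had 66635 counts in Ctrl basal and 43396 in CL basal (log2 fold change -0.62, interval -0.64 to -0.61), and *Actb* had 25167 and 18361 (-0.46, -0.49 to -0.43). The striated muscle actins were nearly absent, with 43 and 24 counts of *Acta1* and 2 and 0 counts of *Actc1*. *Acta2* and *Actg2* together made up 47.4% of the summed actin level in Ctrl basal and 56.6% in CL basal, per kilobase of the exon lengths in the table. *Acta2* and *Actg1* have no firm order in Ctrl basal, since *Actg1* had more counts and its level per kilobase rests on a table length of 2658 bases against a transcript of 1952.

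The proteins that lie on or shape these filaments were described next. *Tpm2* (chromosome 4, 43514711 to 43523765, minus strand), the beta tropomyosin that lies along the filament, had 132145 counts in Ctrl basal and 125962 in CL basal, 1185 and 1126 RPKM. Its log2 fold change was -0.07 (-0.08 to -0.06). *Cnn1* (chromosome 9, 22099216 to 22109630, plus strand), calponin, which restrains the myosin ATPase, had 20380 and 22378 counts in the same order, 194 and 213 RPKM, and was higher in CL basal by 0.13 on the log2 scale (0.10 to 0.16). *Lmod1* (chromosome 1, 135324807 to 135368065, plus strand), leiomodin, which starts new actin filaments, had 15870 and 12817 counts, 105 and 84.4 RPKM. It was the gene that differed most on the lower side, with a log2 fold change of -0.31 (-0.35 to -0.28), and 8.80% of genes with at least 1000 counts had a lower value.

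*Tagln* (chromosome 9, 45929619 to 45936058, minus strand), transgelin or SM22, which cross-links actin, had 30890 counts in Ctrl basal and 31981 in CL basal, 405 and 418 RPKM, with a log2 fold change of 0.05 (0.02 to 0.07). It turned to -0.0099 with scaling by the basal identity list, so its direction is not fixed. Its value is not a separate measurement. Of its 1988 exonic bases, 1241 (62.4%) overlap a model on the other strand, listed under a clone name, which had 30820 and 31877 counts, nearly those of *Tagln*. Since the use of strand is not given in the sources used here, reads of the pair cannot be told apart. Of 1496 windows of 100 bases in its transcript, 497 (33.2%) also occurred in transcripts of other genes, mostly *Gm48529*. A further 108 bases overlap *Pcsk7* (1081 and 946 counts). No exonic overlap with another gene of the table was found for the other 9 contractile genes.

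The myosin subunits were nearly level, and the kinase was higher in CL basal. *Myh11* (chromosome 16, 14194527 to 14291408, minus strand), the heavy chain of smooth muscle myosin, had 285095 counts in Ctrl basal and 290054 in CL basal, 1121 and 1137 RPKM, the rank of 43 among all genes in both. Its log2 fold change was 0.02 (0.01 to 0.03), and it turned to -0.017 with scaling by total counts and to -0.035 with scaling by the basal identity list, so its direction is not fixed. *Myl9* (chromosome 2, 156775420 to 156781658, plus strand), the regulatory light chain that the kinase phosphorylates, had 11047 and 10727 counts, 248 and 240 RPKM, and a log2 fold change of -0.05 (-0.08 to -0.01).

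*Mylk* (chromosome 16, 34745210 to 35002420, plus strand), myosin light chain kinase, was the gene that differed most on the upper side. It had 16523 counts in Ctrl basal and 20855 in CL basal, 42.4 and 53.4 RPKM. The log2 fold change was 0.33 (0.30 to 0.36), a ratio of 1.26, and 91.5% of genes with at least 1000 counts had a lower value. It lay between 0.28 and 0.34 under the alternatives. The locus also makes telokin, a short product of the same gene, and the table gives 1 count per gene, so kinase and telokin were not told apart. Of 7725 windows of 100 bases in its longest coding transcript, 2.34% also occurred in transcripts of other genes.

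*Oxtr* (chromosome 6, 112473683 to 112489943, minus strand), the oxytocin receptor, was the lowest of the 10 per kilobase. It had 2590 counts in Ctrl basal and 2378 in CL basal, 14.1 and 12.9 RPKM, with a rank of 3169 and 3423 among all genes. The log2 fold change was -0.13 (-0.21 to -0.05). Other receptors that can drive contraction were lower still per kilobase. *Avpr1a*, a vasopressin receptor and a relative of *Oxtr*, had 588 and 468 counts, 5.74 and 4.56 RPKM, and the endothelin receptors *Ednra* (291 and 224 counts) and *Ednrb* (974 and 716) reached 1.39 and 6.29 RPKM in Ctrl basal. Their log2 fold changes were -0.33 for *Avpr1a*, -0.38 for *Ednra* and -0.45 for *Ednrb*.

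The contractile genes were next set beside their relatives in the same protein families, a comparison chosen after values had been seen. In each of 6 protein families the contractile gene held a larger share of the summed family level in CL basal than in Ctrl basal. Of 15 relatives, 14 had at least 20 counts, and 13 of these were lower in CL basal, each by its counting interval (background 25.4%, and 27.2% for genes with at least 1000 counts), with a median log2 fold change of -0.33 over the 14. None passed 2-fold (background 4.79% lower), and *Actg1*, *Acta1* and *Myh14* were at least 1.5-fold lower (3 of 14, background 11.7%, and 2.21% for genes with at least 1000 counts, which 13 of the 14 reached). The ratio of contractile gene to relatives does not depend on the scaling of the libraries.

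The gap was widest for actin. The ratio of *Acta2* and *Actg2* to the other actins was 0.900 in Ctrl basal and 1.30 in CL basal, a change of 0.53 on the log2 scale (95% counting interval 0.51 to 0.56). The ratio of *Myh11* to the non-muscle heavy chains *Myh9*, *Myh10* and *Myh14* went from 1.97 to 2.59, a change of 0.39 (0.38 to 0.40). *Myh9* had 250433 counts in Ctrl basal and 194854 in CL basal (-0.37), and *Myh14* had 11640 and 6028 (-0.95), while *Myh10* was higher in CL basal, with 8584 and 10488 counts (0.29).

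The light chain *Myl9* stood at 1.45 times *Myl12a* and *Myl12b* in Ctrl basal and 1.74 times in CL basal, a change of 0.27 (0.22 to 0.32). Calponin 1 stood at 1.90 and 2.32 times its relatives *Cnn2* and *Cnn3*, a change of 0.29 (0.25 to 0.34). Transgelin changed by 0.14 (0.08 to 0.20) against *Tagln2*, and tropomyosin least, by 0.08 (0.07 to 0.10) for *Tpm2* against *Tpm1*, *Tpm3* and *Tpm4*. For *Oxtr* against the other 3 receptors the change was 0.26 (0.13 to 0.39). Luminal markers moved with these relatives. The 18 luminal genes held 6061 CPM in Ctrl basal and 3606 in CL basal, 16 of the 18 were at least 1.5-fold lower (background 11.7%, and 2.21% for genes with at least 1000 counts), and none was at 0. Their part in the result was not tested.

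**Figure D3:**
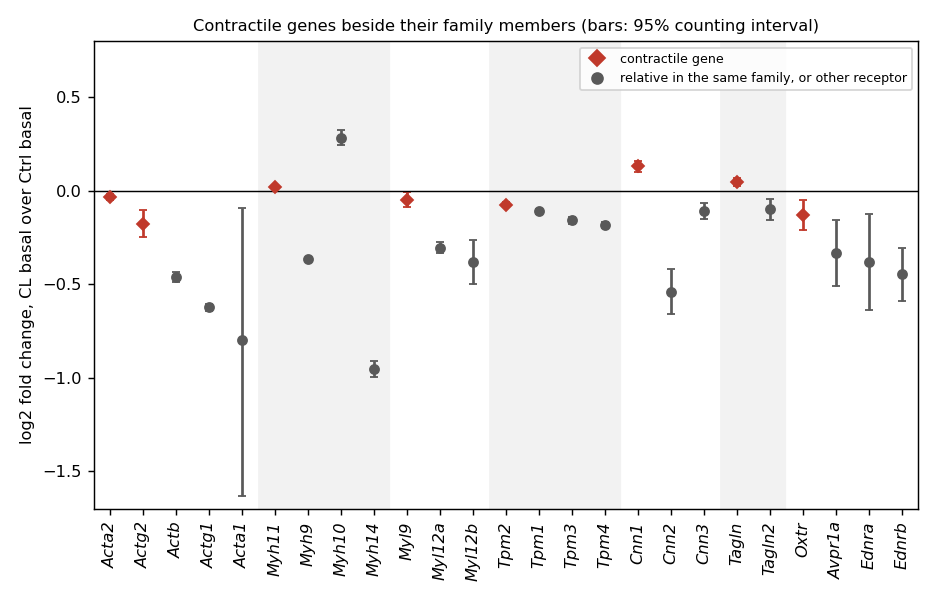
Log2 fold change (CL basal over Ctrl basal, 1 library each) of the contractile genes (diamonds) beside the relatives of the same family or, for *Oxtr*, other receptors (circles), for genes with at least 20 counts, with 95% exact binomial intervals. Relatives lie below 0 except *Myh10* (0.29), and the lowest is *Myh14* (-0.95).

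**Figure D4:**
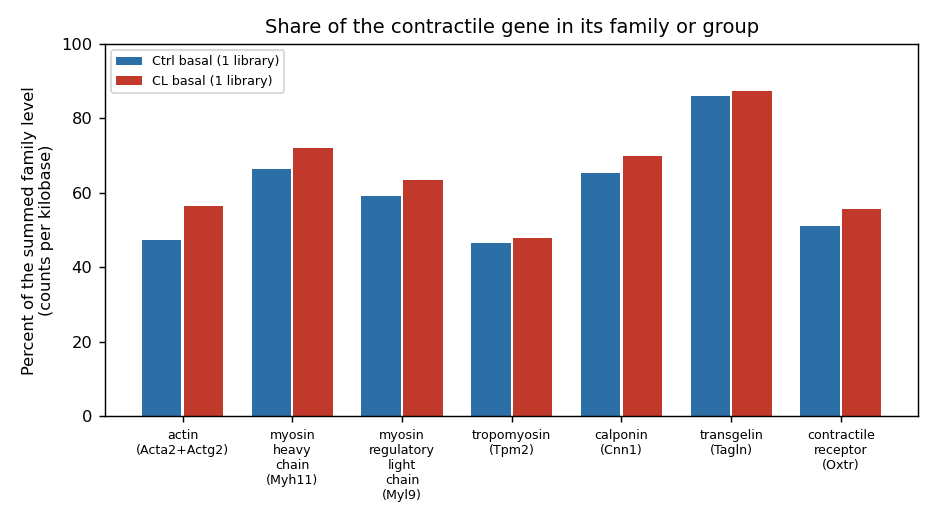
Share of the contractile gene in the summed level of its family or group, in percent of counts per kilobase, for Ctrl basal and CL basal (1 library each). Each bar pair is higher in CL basal, going from 47.4% to 56.6% for actin and from 46.5% to 47.9% for tropomyosin.

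Smooth muscle of blood vessels also expresses most of the contractile genes, so its markers were examined. A list of 15 pericyte and vascular smooth muscle markers summed to 245 CPM (Ctrl basal) and 185 CPM (CL basal), and the contractile genes to 14847 and 14840 CPM. Of the 14 with enough counts, 12 were lower in CL basal, with a median of -0.41. By their intervals 11 were lower (background 25.4%), and 5 were at least 1.5-fold lower (background 11.7%). *Rgs5*, the one with the most counts, had 2281 and 1635 (-0.48), and *Steap4* had 1787 and 1556 (-0.20). None of the 15 was at 0 in both libraries. The part of vascular cells in the contractile counts was not tested. Skeletal muscle markers held 16.9 and 11.3 CPM, with 102 and 90 counts of *Myh2* and 56 and 96 of *Ttn*. Of the 14 with enough counts, 10 were lower in CL basal, 5 of them by at least 2-fold (background 4.79%), and the median was -0.71. Fibroblast markers held 1299 and 1193 CPM, mostly *Postn* (38221 and 36523 counts), with 2330 and 2508 counts of *Col3a1*. *Col3a1* was the exception, since the other 11 of the 12 fibroblast genes were lower in CL basal, 10 by their intervals (background 25.4%) and 2 by at least 2-fold (background 4.79%), with a median of -0.45 over the 12. Endothelial markers held 559 and 442 CPM, with 6462 and 5173 counts of *Cdh5* and 5503 and 4266 of *Pecam1*. By sign 9 of 10 were lower, with a median of -0.31, and by their intervals 7 were lower and 1 higher (background 25.4% and 25.2%). Macrophage markers held 32.4 and 29.8 CPM, with 537 and 521 counts of *Ptprc* and 233 and 185 of *Cd68*. Of the 9 with enough counts, 7 were lower and 2 higher, 1 past 2-fold in each direction (background 4.79% lower and 2.07% higher), with a median of -0.23. The sort was designed to remove endothelial cells and macrophages by CD31 and CD45, and the part of any of these cells in the contractile counts was not tested.

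Further genes of the contractile machinery were described by a list of 28 genes. It includes all the family relatives described above except the actins, so its tally and theirs share genes. Of the 27 with enough counts, 20 were lower in CL basal and 5 higher by their counting intervals (background 25.4% and 25.2%, and 27.2% and 41.4% for genes with at least 1000 counts), none by 2-fold, and the median was -0.11. *Myh14* and *Des*, the intermediate filament desmin, were at least 1.5-fold lower (2 of 27, background 11.7%, and 2.21% for genes with at least 1000 counts), and *Cnn2* followed (1386 and 956 counts, -0.54). *Des* had 847 counts in Ctrl basal and 492 in CL basal (-0.79, interval -0.95 to -0.63). On the higher side were *Pdlim3*, an alpha actinin binding protein (1768 and 2338 counts, 0.40), *Synm*, the intermediate filament synemin (4324 and 5357, 0.31), and *Myh10*. Caldesmon, an actin and myosin binding protein encoded by *Cald1*, had 181883 and 165666 counts (-0.14), and smoothelin, encoded by *Smtn*, had 36717 and 40770 (0.15), both named after their values were seen.

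Myosin light chain phosphorylation is set by the kinase against a phosphatase that RhoA and its kinases restrain. Of 15 genes on this side, 7 were lower and 4 higher by their intervals, and the median was -0.05. All 15 had at least 1000 counts summed over both libraries (background of genes so counted 27.2% and 41.4%). *Arhgef12*, an exchange factor that activates RhoA, had 9998 counts in Ctrl basal and 12287 in CL basal (0.29). *Ppp1r12a*, the targeting subunit of the phosphatase, had 19042 and 21498 (0.17). *Rhob* (3735 and 2487, -0.59) was the gene of this list past 1.5-fold (1 of 15, background 11.7% lower over all genes and 2.21% over genes with at least 1000 counts). It was followed by *Dapk3* (887 and 655, -0.44) and *Arhgef1* (3839 and 2915, -0.40).

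A list of 23 genes of oxytocin signalling held genes below the receptor and also the other receptors *Avpr1a*, *Ednra*, *Ednrb* and *P2rx4*. Of the 23, 9 were lower and 9 higher by their intervals, with a median of 0.01. *Avpr1a*, *Ednra* and *Ednrb*, described above, were among the 9 lower, so the even split is not one of genes below the receptor alone. The background was 25.4% lower and 25.2% higher over all genes tested, and 27.2% and 41.4% over genes with at least 1000 counts, which 19 of the 23 reached. *Gnaq*, the G protein through which the receptor acts, had 1589 counts in Ctrl basal and 2071 in CL basal (0.38, interval 0.28 to 0.47). *Rgs2*, which shortens the signal of that G protein, had 1402 and 2061 (0.55, 0.45 to 0.65). The calcium channel *Orai1* had 128 and 70 counts (-0.86, -1.32 to -0.44) and was the gene of the list past 1.5-fold, a count of 1 of 23 (background 11.7% lower, and 2.21% for genes with at least 1000 counts). *Kcnma1*, a potassium channel, had 53 and 76 counts (0.50), and its interval of -0.01 to 1.05 held 0.

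SRF and its cofactors formed a list of 11 genes, of which 10 had enough counts and 6 were lower and 1 higher by their intervals (background 25.4% and 25.2%, and 27.2% and 41.4% for genes with at least 1000 counts). *Srf* had 3347 counts in Ctrl basal and 3179 in CL basal (-0.08, interval -0.15 to -0.01). The cofactors *Mrtfa* (listed as *Mkl1*, 2057 and 1527 counts, -0.43) and *Mrtfb* (listed as *Mkl2*, 946 and 778, -0.29) were lower, as was *Elk3* (764 and 523, -0.55). *Klf4*, known to oppose myocardin in smooth muscle, had 15924 and 18914 counts (0.24), while *Elk1* (428 and 481, 0.16, -0.03 to 0.36) and *Gata6* (54 and 60, 0.14) had intervals that held 0. *Myocd*, myocardin itself, had 62 and 22 counts (-1.42, interval -2.27 to -0.78) and was at least 2-fold lower (1 of 10 in this list and 0 in each of the other 3 pathway lists, background 4.79% lower), named after its value was seen. At 0.252 and 0.0891 RPKM it was far below *Srf*, at 21.3 and 20.2.

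**Figure D5:**
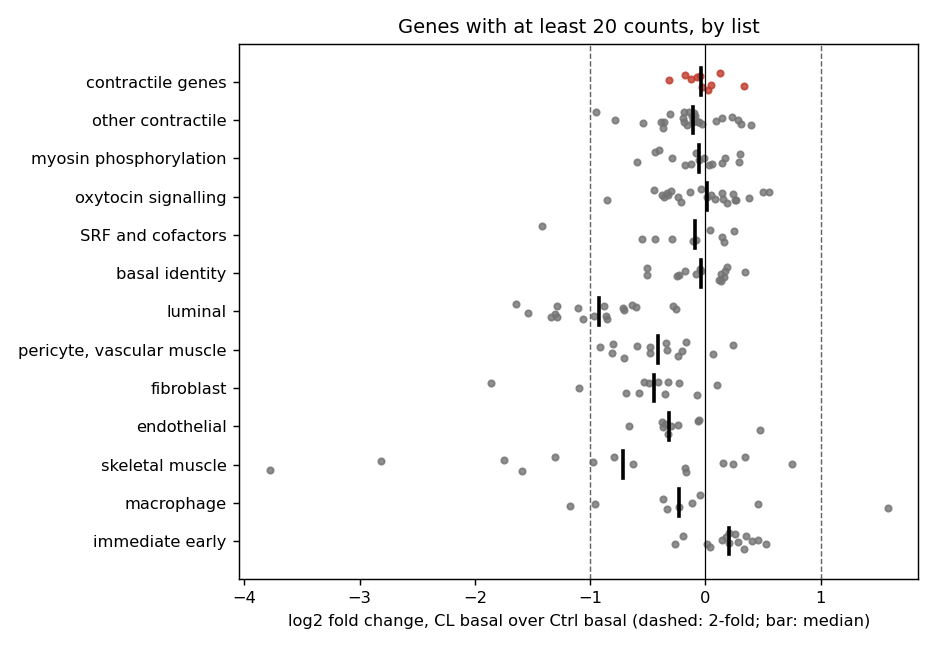
Log2 fold change (CL basal over Ctrl basal, 1 library each) of every gene with at least 20 counts in the contractile set and in 12 other lists, with a bar at each median and dashed lines at 2-fold. The contractile genes form a narrow group around -0.04, while the luminal genes centre on -0.92.

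Promoter windows of RefSeq (GRCm38.p6) were searched for the CArG box, since many contractile genes are known SRF targets. Windows were given for 7 of the 10 genes (*Acta2*, *Cnn1*, *Lmod1*, *Myl9*, *Mylk*, *Oxtr* and *Tpm2*). A CArG box was found in 1 of the 7, *Myl9*, against 1.63% of all 32851 windows, which run from 250 bases before the start site to 50 after it. A box with 1 deviating base among its inner 6 was found in 2, *Acta2* and *Myl9*, against 8.50% of all windows. The element reads as a CArG box on both strands. The 250 bases before the start site are shown for these genes, which were level between the libraries, and for *Actg1*, which was lower. *Actg1*, *Vcl* and *Srf* held a CArG box, of 5 other genes searched (the remaining ones were *Myh9* and *Tpm1*). Capitals mark the boxes. The regions are chr19:34255374-34255623 (minus strand), chr2:156775214-156775463 (plus strand) and chr11:120348496-120348745 (minus strand), each written 5′ to 3′ on the gene's strand.
Acta2: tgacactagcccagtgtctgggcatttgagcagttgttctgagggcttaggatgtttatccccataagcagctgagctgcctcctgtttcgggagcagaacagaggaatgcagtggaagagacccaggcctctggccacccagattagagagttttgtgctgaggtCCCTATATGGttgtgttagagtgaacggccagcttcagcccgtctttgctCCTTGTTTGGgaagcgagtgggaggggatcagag
Myl9: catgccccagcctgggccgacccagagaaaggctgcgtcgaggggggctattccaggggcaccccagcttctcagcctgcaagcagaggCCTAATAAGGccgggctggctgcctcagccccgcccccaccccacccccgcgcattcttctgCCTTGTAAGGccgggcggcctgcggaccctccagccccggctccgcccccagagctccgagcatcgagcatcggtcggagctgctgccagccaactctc
Actg1: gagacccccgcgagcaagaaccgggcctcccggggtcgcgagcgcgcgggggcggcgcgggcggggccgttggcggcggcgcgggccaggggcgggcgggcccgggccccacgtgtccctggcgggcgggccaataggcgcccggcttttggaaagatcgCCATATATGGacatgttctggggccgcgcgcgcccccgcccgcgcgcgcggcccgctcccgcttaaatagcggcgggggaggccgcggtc
In *Acta2* the boxes with 1 deviating base began 84 and 34 bases before the start site. In *Myl9* the full box began at 161 bases and the deviating one at 99, and in *Actg1* the full box began at 90 bases. A match is a description of the letters and not a bound site, and a window without one says nothing of boxes elsewhere.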

How the data were processed

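RNA of sorted mammary basal cells was measured in 1 library for each group, and each count column was matched to its sample by title. The authors deposited raw counts per gene over exons, with no normalization, and the exon length per gene per the file headers, in the layout of featureCounts. The aligner, annotation release, strand setting, filters and handling of PCR copies are not given in the sources used here. GRCm38 and mm10 stand in the submitters' processing notes, and 91.0% of 47154 genes found at the same place had the start and end of GENCODE release M21. A deposited ratio and log2 ratio of the authors' own comparison were not used. The contractile genes and all lists were chosen with earlier results of these data known.

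Counts were scaled by TMM (edgeR 4.0.16, R 4.3.3), with log2 fold changes at a prior count of 2. The counting intervals (95%, Clopper-Pearson, scipy 1.17.1, Python 3.11.15) treat reads as independent, although paired mates and PCR copies are not. Intervals of family ratios are normal approximations on the log scale. No model with a spread between replicates can be fitted to 1 library per group, so no p-value is given, and a gene is past a threshold by its fold alone. In simulated counts with 200 genes changed 4-fold, 200 passed 2-fold, as did 79 unchanged genes, and the interval held 0 for 95.5% of unchanged genes, over 17357 genes tested. The simulated reads were independent, as the interval assumes, so this coverage says nothing of paired mates or PCR copies. Named genes were the contractile genes, the actins, the 3 largest changes in each direction in 4 pathway lists, and the 2 most counted genes of each marker list. Genes of the pathway lists had to reach at least 100 counts summed over both libraries. Alternatives were scaling by total counts, DESeq2 1.42.0 size factors, the upper quartile or the basal identity list, prior counts of 0.5 and 5, other filters, a thinned library, halved counts and 1.5-fold. *Mrtfa*, *Mrtfb*, *Gucy1a1* and *Gucy1b1* were found under older names. A gene that the rule for named genes selects in the list on myosin phosphorylation is not reported here.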

Additional observations from a re-analysis of the deposited data

How the results depend on the processing

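No contractile gene passed 2-fold under any scaling, prior count, filter, thinned library or the threshold of 1.5-fold. With scaling by total counts the median of the contractile genes was -0.077, the log2 ratio of sums -0.039, and 2 genes instead of 4 had an interval above 0. With scaling by the basal identity list these were -0.095, -0.057 and 2. The ratio of sums was 0.0062 with DESeq2 size factors, 0.0095 with the upper quartile and -0.023 without *Myh11*. A scaling shifts all genes alike, and the median of all tested genes ran from -0.06 to 0.003 over the scalings. *Myh11* turned to -0.017 with total counts and to -0.035 with the basal identity list, and *Tagln* to -0.0099 with the latter. Of 70 values of single contractile genes under alternatives, 54 stayed within the main interval, and those that left it all came from other scalings. The prior counts and the thinned library can hardly move genes with so many counts, so the share of 54 of 70 says little of the scalings. No paired analysis was possible because a group holds only 1 library. Depth does not limit the contractile genes, all with over 1000 counts, but the spread between animals is unknown.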

Other observations

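Immediate early genes, which respond within minutes to tissue dissociation and are themselves SRF targets in part, were higher in CL basal in 12 of 15 cases by their counting intervals (background 25.2%, and 41.4% for genes with at least 1000 counts) and lower in 2, with a median log2 fold change of 0.21. *Egr1* had 38465 counts in Ctrl basal and 46971 in CL basal (0.28, interval 0.26 to 0.30), and *Jun* had 42904 and 44336 (0.04). The summed level of the list was 5524 CPM in Ctrl basal and 6489 in CL basal, while that of the contractile genes was level.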
